A study of Mus musculus with 6 samples.

Results

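Cxcr4 and Ackr3 encode the 2 receptors of the chemokine CXCL12. Both were taken by symbol joined to the Ensembl identifier of the deposited count tables, and they are 2 of 37620 genes in those tables. Ackr3 was chosen by its measured counts, for a large fall with dexamethasone, so its values are given as a description without a test, with GW7647 added to Dex too, since that comparison uses the same Dex libraries. Cxcr4 was taken as the other receptor of the same ligand.

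CXCR4 is a G protein-coupled receptor that draws cells towards CXCL12 and holds blood progenitors near the stromal cells that secrete it. ACKR3, also known as CXCR7, is an atypical receptor of the same chemokine. It recruits arrestin, drives little classical G protein signalling and removes CXCL12 from its surroundings by internalizing it. In fetal liver and bone marrow, CXCL12 is known as a stromal signal that guides the homing and retention of blood stem and progenitor cells.

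RNA was sequenced from BFU-E (burst-forming units of the erythroid lineage), which are early progenitors committed to red cells, of 129/SvImJ fetal livers at E14.5. Magnetic depletion of lineage-positive, Sca-1, CD16/32, CD41 and CD34 cells was followed by sorting of c-kit-positive cells within the lowest 10% for CD71. The groups were cells with 100 nM dexamethasone (Dex, a glucocorticoid receptor agonist) plus 10 µM GW7647 (a PPARα agonist), cells with 100 nM Dex alone, and untreated cells, each with 2 libraries. All groups, the untreated one in medium alone, were cultured with 2 U/mL Epo, 40 ng/mL IGF-1 and 100 ng/mL SCF, which support erythroid growth. The labels state 12 h of treatment for both groups with Dex, while column headers of 1 deposited table carry 36 h. No time was taken from the labels for the untreated cells. No group had GW7647 alone, and nothing states whether the libraries of a group came from separate litters, so the p-values measure the spread between these libraries, which may be technical.

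Library depth ran from 35970286 to 54174801 counts. Normalized counts below are counts divided by the library size scaled with trimmed mean of M values (TMM) and multiplied by the mean scaled size. A gene was called when its edgeR adjusted p over all 14125 tested genes was under 0.05. Erythroid markers set for the check of the label (10 genes, among them Gata1, Epor, Tfrc and Slc4a1) were all above the count filter in these cells. Their summed level was 968512 to 978058 normalized counts with Dex plus GW7647, 956114 to 986444 with Dex and 2109719 to 2220053 in untreated cells. Without Hbb-bs, a globin gene and the highest of them, the sums were 422753 to 423845, 395071 to 402436 and 832201 to 912405 in the same groups.

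Both genes lie on mouse chromosome 1, Cxcr4 on the minus and Ackr3 on the plus strand, and in the GENCODE M21 annotation neither overlaps another gene. Cxcr4 (ENSMUSG00000045382) has 1808 bases of annotated exon and transcripts of up to 2 exons, and Ackr3 (ENSMUSG00000044337) has 3348 bases and up to 3 exons. The promoter windows of RefSeq, build GRCm38.p6, are shown because both genes were lower in treated than in untreated cells. Each runs 5′ to 3′ on the gene's strand, from 250 bases before to 50 bases after the annotated start. The Cxcr4 window is chr1:128592250-128592549 and the Ackr3 window is chr1:90203730-90204029. Capitals mark TATAAA, the core of the TATA box, on the gene's strand, and AGAACA, an arm of the glucocorticoid receptor element, on either strand.
Cxcr4 promoter: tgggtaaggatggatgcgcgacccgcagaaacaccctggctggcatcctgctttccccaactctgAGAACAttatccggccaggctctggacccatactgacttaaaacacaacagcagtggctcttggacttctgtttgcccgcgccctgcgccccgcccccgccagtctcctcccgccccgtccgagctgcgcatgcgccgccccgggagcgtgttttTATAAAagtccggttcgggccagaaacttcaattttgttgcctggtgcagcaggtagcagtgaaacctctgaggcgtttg
Ackr3 promoter: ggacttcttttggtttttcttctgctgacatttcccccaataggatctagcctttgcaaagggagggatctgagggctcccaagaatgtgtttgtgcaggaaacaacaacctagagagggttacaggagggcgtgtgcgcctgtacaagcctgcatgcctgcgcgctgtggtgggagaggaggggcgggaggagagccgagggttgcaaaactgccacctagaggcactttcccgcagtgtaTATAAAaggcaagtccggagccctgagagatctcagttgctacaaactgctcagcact

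Both windows hold TATAAA, starting 30 bases before the annotated start of Cxcr4 and 8 bases before that of Ackr3, and 8.32% of 32851 mouse promoter windows hold it on the gene's strand. The Cxcr4 window holds AGAACA once, starting 185 bases before the start, and the Ackr3 window holds none, against 19.0% of all windows on either strand. The whole palindromic glucocorticoid receptor element, AGAACA and TGTTCT with 3 bases between them, was in neither window and in 0.00913% of all windows. The direct repeat bound by PPAR and RXR, AGGTCA given 2 times with 1 base between, was also in neither, and in 0.0396% of all windows on either strand. The GC box GGGCGG occurred 3 times in the Cxcr4 and 1 time in the Ackr3 window, on either strand, where 35.7% of windows hold at least 1. These are matches of letters in 300 bases and say nothing of binding.

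Ackr3 was the more abundant receptor transcript in untreated cells and was far lower with Dex. The libraries with Dex had 92.6 and 121.0 normalized counts of Ackr3, against 3047 and 2979 in untreated libraries. The 2 groups lay far apart, and both Dex libraries were low. The raw counts were 120 and 129 with Dex, with 95% exact Poisson intervals of 99.5 to 143 and 108 to 153, which cover counting error only. The untreated libraries had 2492 and 2576 raw counts. On the log2 scale the difference was -4.83 ± 0.09 (SE), a level 28.5-fold lower with Dex, and it was the 5th lowest log2 difference of the 14125 tested genes. This is the contrast on which Ackr3 was chosen, and 26.0% of all tested genes were called lower in it.

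Cxcr4 was also lower with Dex, by far less. The Dex libraries had 203.7 and 231.6 normalized counts of Cxcr4, against 299.5 and 289.1 in untreated libraries. The Dex libraries were both below the untreated ones. How many of all tested genes separate so with 2 libraries per group was not counted, so separation is a description, here and below. The log2 difference was -0.44 ± 0.12 and was called by edgeR (adjusted p = 0.0112), a level 1.35-fold lower. The call was lost with DESeq2 (adjusted p = 0.0522) and in edgeR without untreated replicate 1 (adjusted p = 0.0591) or without Dex replicate 1 (adjusted p = 0.063). Of all tested genes 51.6% were called in this comparison, 3606 higher and 3677 lower. Scaling by total counts gave 5451 higher and 2584 lower, with a median log2 difference over all genes of 0.139 in place of 0.01. It left Cxcr4 lower by a log2 difference of -0.31 (adjusted p = 0.0471).

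**Figure D1:**
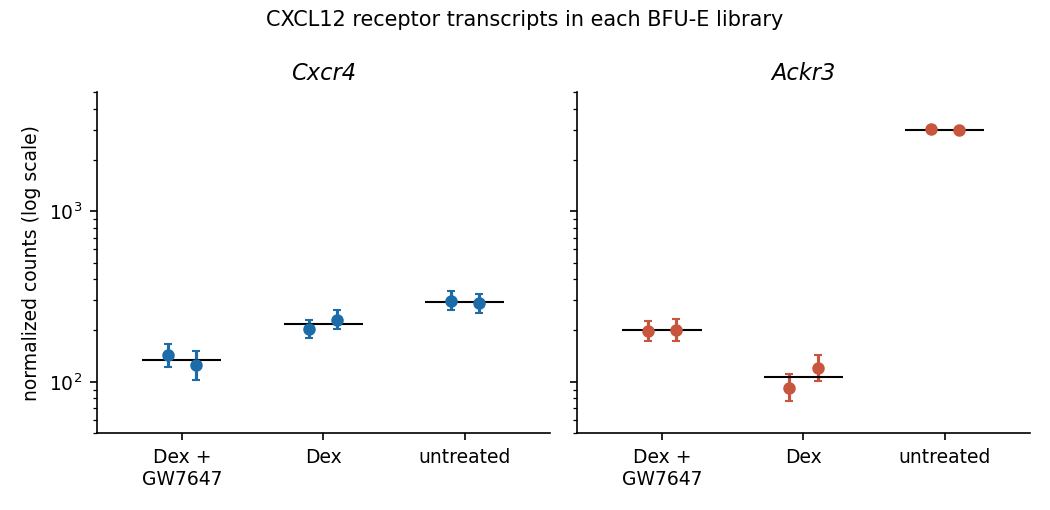
Normalized counts (log scale) of Cxcr4 and Ackr3 in each library by group. Points are libraries, vertical bars are exact Poisson 95% intervals of the raw count put on the same scale, and horizontal lines are group means. Cxcr4 stands at 125.2 to 143.5 with Dex plus GW7647, 203.7 to 231.6 with Dex and 289.1 to 299.5 in untreated cells, whereas Ackr3 is lowest with Dex.

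With GW7647 added to Dex, Ackr3 was higher and Cxcr4 was lower than with Dex alone. The fall of Cxcr4 was called. The libraries with Dex plus GW7647 had 198.6 and 202.0 normalized counts of Ackr3, against 92.6 and 121.0 with Dex. All values with both drugs were above those with Dex. The log2 difference was 0.92 ± 0.12, a level 1.89-fold higher, and it ran from 0.73 to 1.12 over left-out libraries. In this comparison 9.73% of tested genes were called, 2.15% higher and 7.58% lower, or 1374 genes. The count was 548 without replicate 1 of Dex plus GW7647, 618 without its replicate 2 and 2085 with no count filter. The Ackr3 difference was the 53rd highest of 14125. A low level in the Dex libraries was what Ackr3 was chosen for, and a rise above them is favoured by that choice.

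Cxcr4 had 143.5 and 125.2 normalized counts with Dex plus GW7647, against 203.7 and 231.6 with Dex. Both libraries with GW7647 were below both with Dex. The log2 difference was -0.69 ± 0.13, a level 1.61-fold lower (edgeR adjusted p = 0.00784, and adjusted p = 0.00945 with DESeq2). Without replicate 2 of Dex plus GW7647 the log2 difference was -0.60 and the call was lost (adjusted p = 0.0743). Its raw counts were 159 and 106 with both drugs, and 264 and 247 with Dex. In the authors' deposited table, which divides Dex by Dex plus GW7647, the ratio was 1.61 for Cxcr4 (adjusted p = 0.00749) and 0.531 for Ackr3.

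With both drugs against untreated cells, both receptors were lower. The libraries with Dex plus GW7647 had 143.5 and 125.2 normalized counts of Cxcr4, against 299.5 and 289.1 in untreated libraries. The log2 difference was -1.12 ± 0.13, a level 2.18-fold lower (edgeR adjusted p = 5.25e-05), and it was called under every alternative run, with DESeq2 included (adjusted p = 1.56e-07). In this comparison 49.7% of tested genes were called, 24.7% higher and 25.1% lower (5480 higher and 2719 lower under total count scaling, against 3486 and 3539). Ackr3 had 198.6 and 202.0 normalized counts with both drugs, against 3047 and 2979 in untreated cells. Its log2 difference was -3.91 ± 0.09, given without a test because the untreated libraries also served its choice. With GW7647 added to Dex, Ackr3 was still far below untreated cells. In the authors' deposited table, which divides Dex plus GW7647 by untreated, the ratio was 0.455 for Cxcr4 (adjusted p = 2.39e-10) and 0.0663 for Ackr3. The comparisons share libraries in pairs, so their values are not independent of each other.

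**Figure D2:**
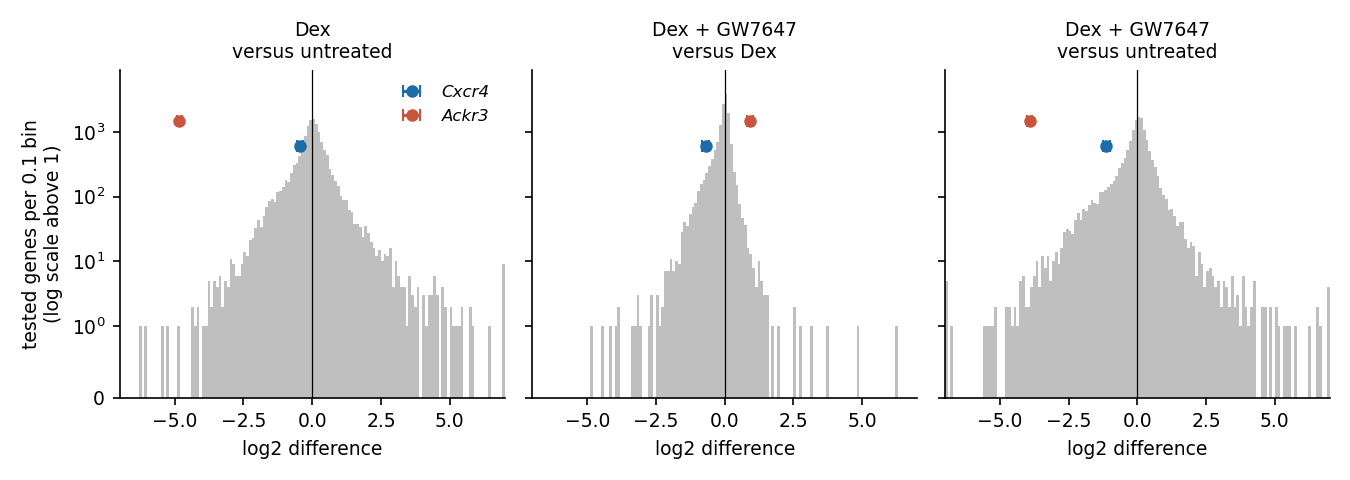
Log2 differences of Cxcr4 and Ackr3 (points with bars of ± 1 SE, height arbitrary) over histograms of all 14125 tested genes in bins of 0.1 (genes beyond the axis in the outermost bins), for each comparison. Ackr3 stands at -4.83 for Dex versus untreated and at 0.92 for Dex plus GW7647 versus Dex, and Cxcr4 is below 0 in all 3 panels.

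Set per length, the order of the receptors differed between the groups. Normalized counts per kilobase of exon were 74.3 ± 7.17 with Dex plus GW7647, 120 ± 10.9 with Dex and 163 ± 4.08 in untreated cells for Cxcr4 (SD, n = 2). For Ackr3 they were 59.8 ± 0.715 with Dex plus GW7647, 31.9 ± 5.99 with Dex and 899.8 ± 14.3 in untreated cells (SD, n = 2). Ackr3 stood at percentile 30.3 with both drugs, 22.7 with Dex and 79.2 in untreated cells, among 13577 tested genes with an annotated length. Cxcr4 stood at percentile 32.7, 38.5 and 43.4 in the same groups. The level of Cxcr4 per length thus stayed below the middle of tested genes in every group.

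The ratio of Cxcr4 to Ackr3 per kilobase, which no library scaling can alter, was 1.34 and 1.15 with Dex plus GW7647, 4.07 and 3.55 with Dex, and 0.182 and 0.180 in untreated libraries. The groups did not overlap. Ackr3 transcripts outnumbered those of Cxcr4 per length in untreated cells, and Cxcr4 was ahead in both treated groups. Its mean was 1.24 ± 0.135 with both drugs, 3.81 ± 0.374 with Dex and 0.181 ± 0.00166 in untreated cells (SD, n = 2). With raw counts and no length, the mean was 0.671 with both drugs, so the order of the receptors in that group rests on the lengths used.

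**Figure D3:**
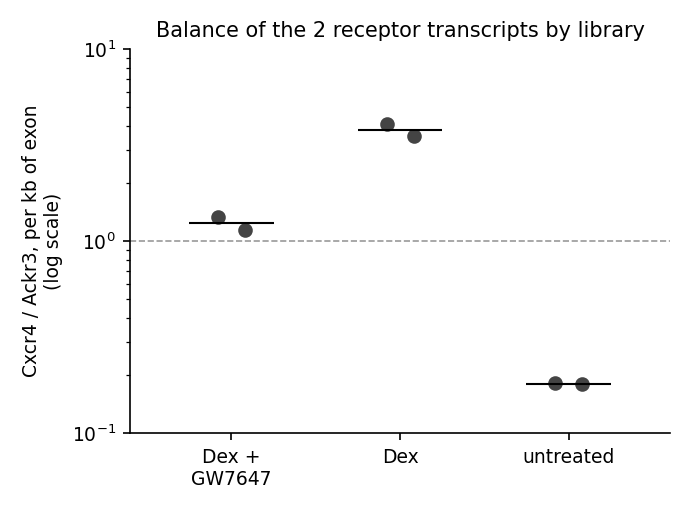
Ratio of Cxcr4 to Ackr3 counts per kilobase of exon (log scale) in each library, with group means as lines and equality as a dashed line. The ratio is 1.15 to 1.34 with Dex plus GW7647, 3.55 to 4.07 with Dex and 0.180 to 0.182 in untreated cells.

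Among the ligands, Cxcl12 itself had 1 count with Dex plus GW7647, 0 with Dex and 2 in untreated cells, summed over the libraries of each group. Cxcl11, the other chemokine that ACKR3 binds, had no count in any library. A count of 0 allows up to 3 counts in a library, or 0.0554 to 0.0834 CPM over the 6 libraries. Mif, a cytokine that also binds CXCR4, was abundant, with 7505 ± 278 normalized counts with Dex plus GW7647, 6646 ± 359 with Dex and 6798 ± 416 in untreated cells (SD, n = 2). Mif was not called in any comparison (edgeR adjusted p from 0.0748 to 0.678), although 5 of 12 alternatives called it higher with both drugs than in untreated cells. With GW7647 added to Dex, 11 of 12 alternatives left it uncalled and the other called it higher. Dpp4, the surface peptidase CD26 that trims and inactivates CXCL12, had 31.6 ± 1.26 with both drugs, 55.6 ± 8.84 with Dex and 47.7 ± 8.60 in untreated cells, and was not called either (edgeR adjusted p from 0.0557 to 0.439), except with no count filter, where it was lower with GW7647 added to Dex.

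Of the 12 ligands and ligand-cleaving enzymes listed, 7 passed the count filter. With Dex against untreated, 1 was called higher and 4 lower of 7 measured, where 25.5% of all tested genes were higher and 26.0% lower, with a median log2 difference of -0.35 against 0.01 for all tested genes. These counts are a description. Mmp2, the 1 higher, passed the filter only through its treated levels, and Cd74, among the 4 lower, only through its untreated level. With GW7647 added to Dex, 3 of 6 measured were called lower, where 7.58% of all tested genes were, and the rest were not called, with a median of -0.81 against 0.001 for all. Mmp2, a matrix metalloprotease able to cleave CXCL12, had 165.1 and 118.1 normalized counts with Dex, against 6.11 and 6.94 in untreated libraries (log2 4.42 ± 0.31). That difference is given without a test, because only the treated levels of Mmp2 brought it past the filter. The untreated libraries held 11 raw counts of it in sum. Mmp2 fell by 1.27 on the log2 scale when GW7647 was added to Dex (edgeR adjusted p = 0.00272). The neutrophil proteases Elane and Ctsg, which can also cut CXCL12, fell in both steps. Elane had 126.4 and 138.2 with both drugs, 343.4 and 309.4 with Dex, and 650.4 and 711.1 in untreated libraries.

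Genes of G protein signalling and migration downstream of CXCR4 were all expressed, and 24 of 24 passed the filter. With Dex against untreated, 8 were called higher and 10 lower (median log2 -0.05, against 0.01 for all tested genes, of which 25.5% were called higher and 26.0% lower). That balance turned under total count scaling, with 11 higher, 8 lower and a median of 0.08. The balance over all tested genes turned with it, to 5451 higher and 2584 lower with a median of 0.139. Pik3r5, called lower in both treated groups than in untreated cells, passed the filter only through its untreated level. Dock2, the exchange factor that activates Rac in blood cells, had 1915 ± 13.5 normalized counts with Dex, against 863.8 ± 18.0 in untreated cells (edgeR adjusted p = 1.23e-07). Gnai3, an inhibitory G protein alpha subunit, rose 1.81-fold (edgeR adjusted p = 5.15e-07). Elmo1, a partner of DOCK proteins, fell to 358.3 ± 46.2 with Dex, against 1554 ± 7.72 in untreated cells (edgeR adjusted p = 3.71e-08). Gnai2, the abundant alpha subunit of the same class in blood cells, had 9087 ± 128 with Dex, against 8391 ± 126 in untreated cells, and was not called (edgeR adjusted p = 0.0615), but it was called higher under total count scaling (adjusted p = 0.00111) and with no count filter.

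With GW7647 added to Dex, 9 of 23 measured genes of this group were called lower and the rest were not called (median log2 -0.06), where 7.58% of all tested genes were lower. Several known effectors of CXCR4 were among them. Dock2 fell to 750.9 ± 3.71 normalized counts with both drugs, against 1915 ± 13.5 with Dex (edgeR adjusted p = 1.23e-06). Pik3cg, the catalytic subunit of PI3K gamma, had 954.4 ± 35.2 with both drugs, against 1625 ± 59.9 with Dex (edgeR adjusted p = 4.61e-05). With both drugs against untreated, 4 genes of the group were higher and 11 lower of 24 (6 and 9 under total count scaling). Of all tested genes 24.7% were higher and 25.1% lower there (5480 and 2719 genes under total count scaling). Plcb2, a phospholipase C activated by G protein beta-gamma subunits, was among the lower (log2 difference -1.56 ± 0.11, edgeR adjusted p = 1.89e-06).

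Of 18 genes of receptor phosphorylation, arrestin binding and endosomal sorting, all passed the filter. With Dex, 6 were called higher and 4 lower than in untreated cells (10 and 3 under total count scaling), and with GW7647 added to Dex 1 was lower and 17 were not called. These shares are near those of all tested genes, of which 25.5% were higher and 26.0% lower with Dex and 7.58% lower with GW7647 added. Under total count scaling, 5451 of all tested genes were higher and 2584 lower with Dex. The gene lower with GW7647 added was Arrb2, beta-arrestin 2, which binds both receptors once they are phosphorylated. Arrb2 had 2427 ± 89.7 normalized counts with both drugs, 3139 ± 19.3 with Dex and 2221 ± 53.7 in untreated cells (SD, n = 2). It rose with Dex (edgeR adjusted p = 1.97e-05) and fell with GW7647 added (edgeR adjusted p = 0.00109). Itch, the ubiquitin ligase that sends CXCR4 to degradation, rose 1.38-fold with Dex (edgeR adjusted p = 0.000137). Pim1, a kinase that phosphorylates CXCR4, fell to 11860 ± 290 with Dex, against 24960 ± 811 in untreated cells (edgeR adjusted p = 1.12e-07). Grk2, a main kinase of the CXCR4 tail, had 4915 ± 355 with Dex, against 5184 ± 288 in untreated cells, and was not called (edgeR adjusted p = 0.362). With both drugs it had 4580 ± 242 and was called lower than in untreated cells (edgeR adjusted p = 0.0468), a call kept in 7 of 12 alternatives. Grk3, a related kinase, had 39.5 ± 4.11 with both drugs, against 118.2 ± 2.91 in untreated cells (edgeR adjusted p = 5.49e-05).

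RGS proteins shorten signals of inhibitory G proteins, and 7 of 9 listed passed the filter. With Dex, 3 were higher and 1 lower than in untreated cells, and with GW7647 added to Dex 4 of 7 measured were lower and the rest were not called. Of all tested genes, 25.5% were higher and 26.0% lower with Dex, and 7.58% were lower with GW7647 added. Rgs1 had 48.0 ± 1.06 normalized counts with both drugs, 144.4 ± 13.3 with Dex and 81.6 ± 9.09 in untreated cells (SD, n = 2). Rgs19 rose 1.89-fold with Dex (edgeR adjusted p = 1.17e-06) and fell by 0.65 on the log2 scale with GW7647 added (edgeR adjusted p = 0.000115). Rgs18 had 2339 ± 21.8 with both drugs, 3930 ± 399 with Dex and 2878 ± 22.0 in untreated cells. Rgs14 had 154.5 ± 10.4 with both drugs, against 232.4 ± 26.1 in untreated cells (edgeR adjusted p = 0.00352). Rgs2 fell with Dex, to 66.7 ± 10.4 against 200.3 ± 3.68 in untreated cells (edgeR adjusted p = 1.65e-05), and had 59.1 ± 3.22 with both drugs (edgeR adjusted p = 0.613 against Dex).

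**Figure D4:**
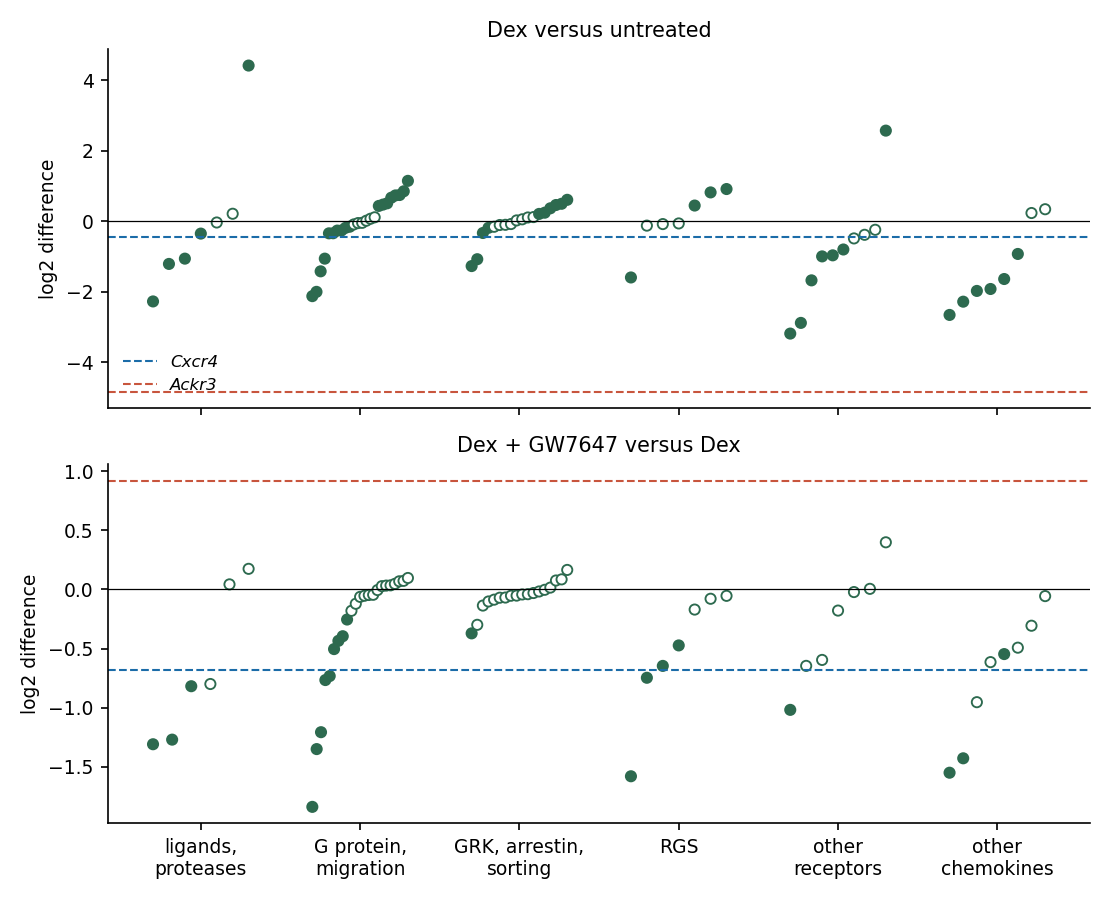
Log2 differences of the measured genes of the CXCL12 pathway lists (a mean of at least 10 normalized counts), for Dex versus untreated above and Dex plus GW7647 versus Dex below. Filled points were called by edgeR, open points were not, and dashed lines mark Cxcr4 and Ackr3. In the lower panel Ackr3, at 0.92, lies above every listed gene, and the called genes all lie below 0. Ackr3 was chosen for a low level with Dex, which favours its high place in that panel.

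Other chemokine receptors were few in these cells: 11 of 22 listed passed the filter. Some passed only through their untreated level, and Xcr1, the 1 higher with Dex, only through its treated levels, so their counts are a description. Xcr1 had 7 raw counts in sum in untreated libraries, against 60 with Dex. Of 10 measured with Dex against untreated, 1 was higher and 6 lower, with a median log2 difference of -0.88, where 25.5% of all tested genes were higher and 26.0% lower. Ccrl2, an atypical receptor of chemerin, was the most abundant, with 1192 ± 84.6 normalized counts with Dex, against 2076 ± 59.4 in untreated cells (edgeR adjusted p = 3.17e-06). Cx3cr1, the fractalkine receptor, had 10.8 and 7.50 with Dex, against 78.2 and 92.5 in untreated libraries, and is given without a test because only its untreated level brought it past the filter. With GW7647 added to Dex, Ccr2, the receptor of the monocyte chemokine CCL2, was the 1 called of 7 measured, with 44.4 ± 1.01 against 90.4 ± 3.44 with Dex (edgeR adjusted p = 0.0035). The rest were not called there, where 7.58% of all tested genes were lower. Ackr1, the Duffy antigen and another atypical receptor, had 136.4 ± 7.50 with both drugs, 135.5 ± 23.3 with Dex and 265.8 ± 23.2 in untreated cells. Its log2 difference between the treated groups was 0.01 ± 0.15 (edgeR adjusted p = 0.989), and whether it differed from that of Ackr3 was not tested. Ackr1 was named after its values were seen.

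Of 30 other chemokines listed, 29 were in the tables and 10 passed the filter. With Dex, 6 of 8 measured were lower than in untreated cells and the rest were not called (6 lower and 1 higher under total count scaling), and with GW7647 added 3 were lower and 5 were not called. Of all tested genes 26.0% were lower with Dex and 7.58% with GW7647 added, and Ccl6, among the 6, passed the filter only through its untreated level. Ccl9 had 42.9 ± 0.571 with both drugs, 66.2 ± 8.49 with Dex and 205 ± 7.90 in untreated cells. The platelet chemokines led. Pf4 had 2606 ± 130 normalized counts with both drugs, 3808 ± 318 with Dex and 14970 ± 776 in untreated cells, and Ppbp had 288.6 ± 32.8, 775.3 ± 139 and 3747 ± 22.3 in the same groups (SD, n = 2). The fall of Cxcl5, a neutrophil-attracting chemokine, with GW7647 added (edgeR adjusted p = 0.0395) was called in 5 of 12 alternatives.

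Markers of megakaryocytes, granulocytes and monocytes had lower summed levels in both treated groups than in untreated cells, and so did erythroid markers. Of 10 erythroid markers, 8 were lower with Dex and 9 with both drugs, where 26.0% and 25.1% of all tested genes were lower. Total count scaling left 7 lower in each comparison, and no erythroid marker was called higher. With GW7647 added to Dex, 2 were higher and 8 were not called, where 2.15% of all tested genes were higher. In bulk samples, fewer cells of a type and less RNA per cell cannot be told apart. Of 10 megakaryocyte markers, all measured, 9 were lower with Dex than in untreated cells and 9 were lower with GW7647 added to Dex, where 26.0% and 7.58% of all tested genes were lower. Their summed level was 15385 to 15435 normalized counts with Dex plus GW7647, 20711 to 22510 with Dex and 44625 to 47026 in untreated cells. Markers of granulocytes and eosinophils were called lower in 9 of 10 cases with Dex and 8 of 9 with GW7647 added, with sums of 4391 to 4489 with both drugs, 7064 to 7397 with Dex and 15268 to 16277 in untreated cells. Mast cell and basophil markers were lower for 7 of 7 with GW7647 added, with sums of 5658 to 5759 with both drugs, 9794 to 10138 with Dex and 6220 to 6235 in untreated cells. The order of this sum rests on Hdc, histidine decarboxylase, which was higher with Dex. Without Hdc the sums were 674 to 684 with both drugs, 1259 to 1307 with Dex and 4471 to 4486 in untreated cells. With Dex against untreated, 2 of these mast cell and basophil markers were higher and 6 lower of 8. Mcpt4, among the 6 lower, was measured only where untreated libraries were compared, so its call is a description. Monocyte and macrophage markers summed to 542 to 545 with both drugs, 796 to 827 with Dex and 1877 to 1894 in untreated cells, with C1qa at 0 in every library. Without Lyz2, the highest of them, the sums were 335 to 339 with both drugs, 454 to 465 with Dex and 587 to 651 in untreated cells. Of 5 measured with Dex against untreated, 3 were lower and 1, Cd68, was higher. Of all tested genes 26.0% were lower and 25.5% higher there. Adgre1, among the 3 lower monocyte markers, was likewise measured only where untreated libraries were compared. The part of these cells in the fall of Cxcr4 was not tested.

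Endothelial cells, in which Ackr3 is also known to be expressed, were represented by 8 markers, of which 5 passed the filter. They summed to 475 to 523 normalized counts with Dex plus GW7647, 652 to 704 with Dex and 1396 to 1455 in untreated cells. Of 4 measured, 3 were lower with Dex than in untreated cells and 2 were lower with GW7647 added, where 26.0% and 7.58% of all tested genes were lower. Stromal markers summed to 700 to 722 with both drugs, 879 to 917 with Dex and 353 to 446 in untreated cells, with Lum at 0 in every library. Without Pdgfrb, the highest of them, the stromal sums were 74 to 91 with both drugs, 176 to 195 with Dex and 171 to 186 in untreated cells. Hepatoblast markers summed to 228 to 250, 340 to 375 and 146 to 170 in the same groups, with Serpina1a at 0 (117 to 150, 188 to 217 and 141 to 160 without Apoa1), and lymphoid markers to 39 to 40, 64 to 78 and 141 to 193, with Ms4a1, Cd3d and Cd2 at 0. The part of other cells in the differences of Ackr3 was not tested.

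The genes whose profile over the 6 libraries was nearest to that of Cxcr4 were Tmem229b, Lcp1, Il18rap, Nedd9 and Tspan8, among 11276 genes averaging 50 or more normalized counts. Nearness was the root mean square distance between log2(normalized count + 1) profiles centred on their mean. It was 0.0498 for Tmem229b and 0.09 for Tspan8, against a median of 0.497 over all genes compared. Lcp1, the actin-bundling protein L-plastin, had 1952 and 1824 normalized counts with Dex plus GW7647, 2928 and 2987 with Dex, and 4209 and 4193 in untreated libraries. These genes were picked for that likeness, so the shared order is no separate result.

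The profiles nearest to Ackr3 were farther off. They were those of Fabp4, at a distance of 0.32, Prss50, Nyx, Ifit1 and Sh3pxd2a, at 0.521, against a median of 2.1. Fabp4, a fatty acid binding protein and known PPAR target, had 38.8 and 48.4 normalized counts with Dex plus GW7647, 31.6 and 22.5 with Dex, and 612.5 and 537.7 in untreated libraries. Its log2 difference with GW7647 added was 0.65 ± 0.24 and was not called (edgeR adjusted p = 0.123). It is given as a description, since these genes were picked for their likeness to Ackr3. Whether Ackr3 differed from them in that step was not tested.

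**Figure D5:**
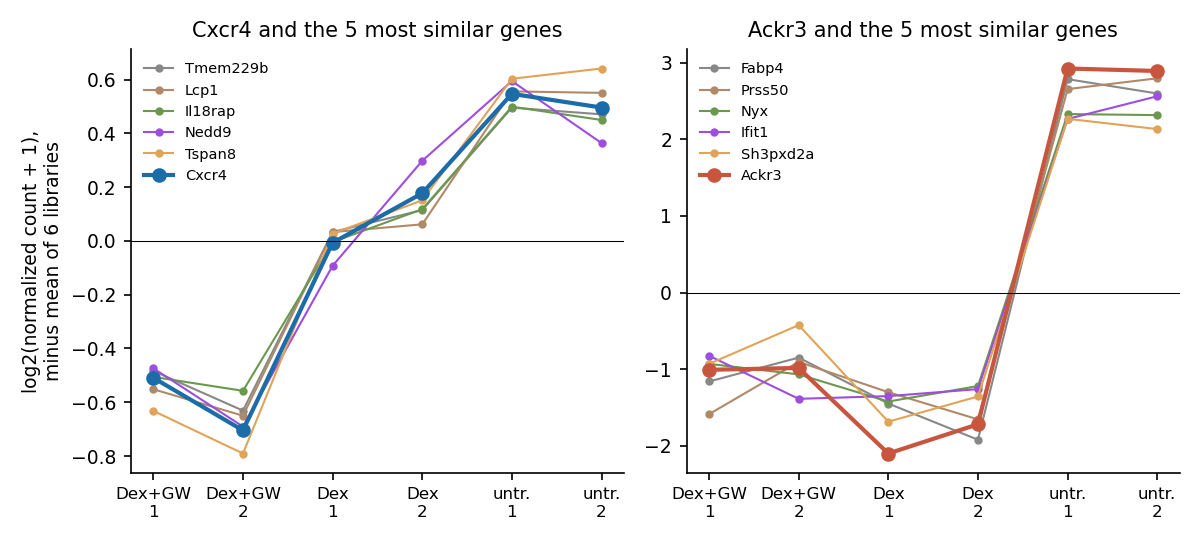
Profiles of Cxcr4 (left) and Ackr3 (right) with the 5 most similar genes of each over the 6 libraries, as log2(normalized count + 1) minus its mean over libraries. Both Dex libraries (Dex 1 and Dex 2) are the lowest for Ackr3, and both libraries with Dex plus GW7647 (Dex+GW 1 and 2) are the lowest for Cxcr4.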

How the data were processed

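The members and gene lists were chosen with earlier results of these data known. The authors deposited whole-number read counts per gene and library. Per the submitters' processing notes, TopHat 1.4.1, HTSeq and DESeq were used with builds mm9 and NCBIM37, and whether counting used strand is not given in the sources used here. The deposited fold ratio of group means and the deposited p-value columns, per the file headers, are the authors' own. Counts of Dex plus GW7647 were identical in both tables. Symbols, found for 87.45% of genes, and lengths came from GENCODE M21 (GRCm38), a later build than the authors'.

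Counts of all 6 libraries were fitted by group with edgeR 4.0.16 in R 4.3.3: filterByExpr with a minimum count of 10, TMM scaling, the quasi-likelihood test and Benjamini-Hochberg adjustment over 14125 genes. The SE is the log2 difference divided by the root of F. The fit recovered known differences in simulated counts. DESeq2 1.42.0, other scalings and filters, a replicate block and left-out libraries served as alternatives. List genes were measured at a mean of 10 or more normalized counts over the libraries compared. Named genes were Cxcr4, Ackr3, Cxcl12, Mif, Dpp4, Gnai2, Grk2 and Arrb2, up to 3 called members of smallest p per pathway list and comparison, and the 5 genes nearest each receptor. The libraries of each group differed by more than counting noise (chi-square per degree of freedom of 3.79 with both drugs, 20.6 with Dex and 8.34 in untreated cells). One result that the naming rule covers is not reported here. Sums without the highest marker were added after seeing the data.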

Additional observations from a re-analysis of the deposited data

How the results depend on the processing

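No called difference of Cxcr4 changed sign under the alternatives run. Small uncalled differences did, among them Mif (-0.09 to 0.10) and Grk2 (-0.15 to 0.05) with Dex against untreated. Prss50 (-0.14 to 0.58) and Ifit1 (-0.08 to 0.49) did so with GW7647 added to Dex. The balance of the G protein list with Dex against untreated turned under total count scaling, as did that of all tested genes. Cxcr4 with Dex against untreated ran from -0.54 to -0.34 (log2) over left-out libraries and was -0.44 with DESeq2 (adjusted p = 0.0522). With GW7647 added to Dex it ran from -0.79 to -0.58 over left-out libraries. Ackr3 with both drugs against untreated was -3.79 under total count scaling. Genes called with GW7647 added to Dex numbered 2085 with no count filter and from 548 to 1729 over left-out libraries. The Cxcr4 to Ackr3 ratio without length was 0.671 with both drugs, 2.06 with Dex and 0.0977 in untreated cells, and 0.166 in untreated cells with the longest transcripts. The cause of these changes was not tested, other than that fewer libraries were fitted or the lengths were left out or replaced.

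Replicate numbers were shared between groups, but the deviations of same-numbered libraries correlated at -0.2 (Dex and untreated), -0.039 (both drugs and untreated) and 0.134 (both drugs and Dex), so the numbers were not taken as pairs. With the replicate number as a block, 998 genes were called with GW7647 added to Dex, 6824 with Dex against untreated and 6523 with both drugs against untreated, and Cxcr4 kept its calls. With the untreated numbers crossed, chosen after seeing the data, 8044 genes were called with Dex against untreated. At 106 to 264 raw counts, counting error limits the precision of Cxcr4.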
